A study of Homo sapiens with 9 samples.

Results

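TRIM (tripartite motif) genes were followed in HT-29 cells, an established human colorectal adenocarcinoma cell line, that received ADP-heptose, flagellin or no stimulus. A gene was a member when its symbol in the count table was TRIM followed by digits only and when its mean raw count over the 9 libraries was at least 10. Of 68 gene identifiers with such a symbol (67 symbols, since TRIM74 is listed under 2 identifiers), 42 were members, out of 62710 identifiers in the whole table. The rule used the mean level of a gene and no difference between groups. Of the other 26 identifiers, 13 had counts below the minimum and 13 had 0 counts in every library. The lowest members were TRIM62, TRIM6 and TRIM17, with mean counts of 136.2, 99.0 and 55.6, and the symbols just below the minimum were TRIM67, TRIM54 and TRIM9, with 8.11, 7.89 and 6.22. All 42 members also had a mean of at least 10 counts in the non-stimulated libraries alone, so none entered through a stimulated group only.

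Each of the 3 groups held 3 libraries of poly(A)-selected RNA. One group received ADP-heptose, a sugar precursor of bacterial lipopolysaccharide that is sensed in the cytosol by the kinase ALPK1, at 500 ng/mL for 2.5 h. Another received the same dose by mass of flagellin, the subunit of bacterial flagella that is sensed at the cell surface by TLR5. The non-stimulated cells received neither agent. All groups were the same unedited cell line, so that the comparisons describe 1 tumour line and no primary epithelium.

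TRIM proteins share a RING domain, B-box zinc fingers and a coiled coil, and they differ in the domain at the C-terminal end that binds the substrate. The RING domain makes most of them E3 ubiquitin ligases: it recruits an E2 enzyme that carries ubiquitin and passes the ubiquitin to a target protein. Many TRIM proteins act in innate immunity, where they ubiquitinate sensors and adaptors of the NF-κB and interferon pathways or bind viral capsids and antibodies, and several are themselves induced by interferon. A few family members lack the RING domain. Among the members these were TRIM14, TRIM16, TRIM29, TRIM44 and TRIM66, so 37 of the 42 members carry the domain that the name ubiquitin ligase rests on.

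The libraries held 30770448 to 38304035 counts in the non-stimulated and flagellin groups and 50054773 to 58272772 in the ADP-heptose group, of which the members took 0.2288% to 0.2599%. Among the ADP-heptose libraries replicate 3 stood apart. Over the 42 members its log2 differences had an SD of 0.408 from replicate 1 and 0.336 from replicate 2, whereas the SD was 0.202 between replicates 1 and 2 and 0.117 to 0.146 within the other groups. Values without this library are given where they changed a call. The epithelial markers EPCAM, CDH1, KRT8, KRT18, KRT20, VIL1 and LGALS4 had at least 4562 counts in every library, CEACAM5 had 221 to 456, CDX2 had 17 to 48 and CDX1 had 0 to 12. Of 8 markers of other cell types, 7 (PTPRC, CD3E, CD14, PECAM1, COL1A2, DCN and LYVE1) stayed at 10 counts or fewer and COL1A1 had 437 to 1019. Of these markers KRT20 (log2 fold change 0.40, edgeR adjusted p 0.00094) and COL1A1 (0.41, adjusted p 0.0311) were higher after ADP-heptose, and their part in the results below was not tested. The stimulation itself was visible in CXCL8, CCL20, NFKBIA and TNFAIP3, NF-κB targets that rose after ADP-heptose by 7.68, 8.01, 3.94 and 4.76 on the log2 scale and after flagellin by 2.49, 4.74, 0.68 and 1.27 (edgeR, largest adjusted p 0.00029).

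The 3 promoters below are shown because TRIM31, TRIM15 and TRIM16 had the largest rises after ADP-heptose. They run from 250 bases before to 50 bases after the RefSeq start (GRCh38.p14), at chr6:30113041-30113340 on the minus strand for TRIM31, chr6:30163296-30163595 on the plus strand for TRIM15 and chr17:15682902-15683201 on the minus strand for TRIM16. Capitals mark matches to the NF-κB consensus, searched on both strands, or to the interferon-response core GAAANNGAA on either strand.
TRIM31: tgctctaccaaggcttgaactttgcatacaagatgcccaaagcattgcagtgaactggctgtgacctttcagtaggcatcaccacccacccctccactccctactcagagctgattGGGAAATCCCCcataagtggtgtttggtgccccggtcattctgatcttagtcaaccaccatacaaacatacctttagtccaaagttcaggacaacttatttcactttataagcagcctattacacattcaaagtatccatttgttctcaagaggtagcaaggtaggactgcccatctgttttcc
TRIM15: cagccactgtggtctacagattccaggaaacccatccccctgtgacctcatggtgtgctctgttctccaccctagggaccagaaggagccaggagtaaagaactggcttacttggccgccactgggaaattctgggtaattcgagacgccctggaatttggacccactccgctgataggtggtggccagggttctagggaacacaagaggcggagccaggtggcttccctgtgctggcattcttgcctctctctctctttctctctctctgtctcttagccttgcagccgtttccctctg
TRIM16: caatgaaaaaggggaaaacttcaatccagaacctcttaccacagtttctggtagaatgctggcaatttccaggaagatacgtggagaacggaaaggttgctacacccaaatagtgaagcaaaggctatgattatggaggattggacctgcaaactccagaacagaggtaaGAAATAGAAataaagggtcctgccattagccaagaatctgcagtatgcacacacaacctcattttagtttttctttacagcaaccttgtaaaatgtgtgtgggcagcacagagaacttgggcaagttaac

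The TRIM31 window held 2 overlapping matches to the NF-κB consensus, the first starting 134 bases before the start site, and no match to the interferon core. The TRIM15 window held neither motif, and the TRIM16 window held 1 interferon core, 80 bases before the start. RefSeq promoters were matched for 32 of the 42 members, with 46 promoters in all since some genes have several starts. The NF-κB consensus was present in 3 of these 46 promoters (6.52%), those of TRIM31, TRIM14 and TRIM2, and in 11.3% of all 35116 RefSeq promoters of the same length. The interferon core was present in 8 of the 46 (17.4%) and in 8.11% of all promoters. Besides TRIM16, the promoters with the interferon core belonged to TRIM21, which held 2 matches, TRIM69, TRIM5, TRIM14, TRIM26, TRIM2 and TRIM44. A match is a description of letters in the window, and whether a factor binds there was not measured. The members without a matched promoter were TRIM29, TRIM8, TRIM35, TRIM11, TRIM4, TRIM24, TRIM45, TRIM27, TRIM28 and TRIM13.

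To set the changes against the starting levels, counts were normalized to the effective library size and divided by the exon length of each gene, since levels of different genes can only be compared per length. In non-stimulated cells TRIM28, the co-repressor that silences retroelements together with KRAB zinc finger proteins, had the highest level, 5709 ± 121 normalized counts per kb of exon (mean ± SD, n = 3). TRIM26 (712.4 ± 18.8), TRIM27 (637.3 ± 24.9) and TRIM8 (583.9 ± 8.36) followed. The libraries of TRIM28 (5623 to 5848) lay far above those of TRIM26 (691.3 to 727.4), and those of TRIM26 above those of TRIM27 (611.4 to 661.1). Next came TRIM65 at 567.8 ± 18.8, whose range of 551.4 to 588.3 overlapped that of TRIM8 (578.4 to 593.5). TRIM44 (515.5 ± 35.4), TRIM47 (509.7 ± 11.1) and TRIM25 (496.2 ± 25.9) completed the 8 highest and overlapped each other. TRIM56 came 9th at 491.4 ± 28.6, and its range of 473.6 to 524.4 overlapped that of TRIM25 (468.2 to 519.3). TRIM25 is the ligase that acts on the RNA sensor RIG-I, and TRIM65 acts on the RNA sensor MDA5. The median over the 42 members was 183.8, and the highest level was 313.7 times that of TRIM17, the lowest. Of the 5 members with the largest rises, TRIM47 was 7th, TRIM31 13th, TRIM15 18th, TRIM16 29th and TRIM10 37th in this order.

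**Figure D1:**
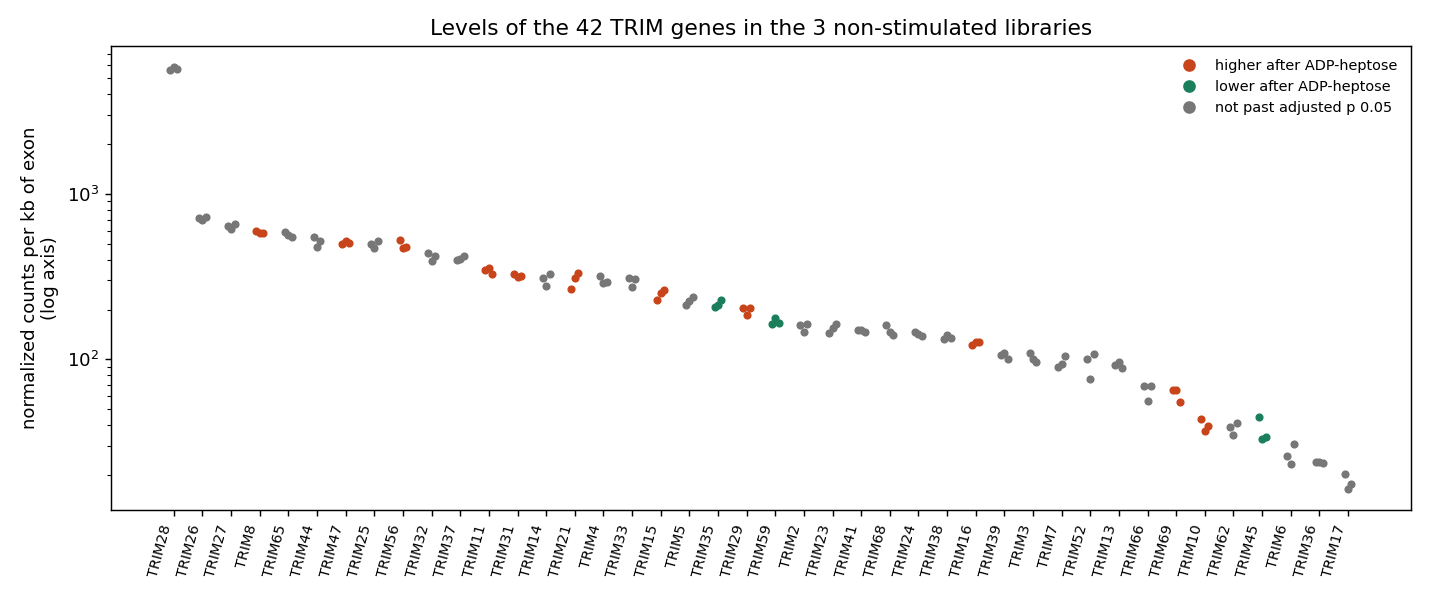
Normalized counts per kb of exon (log axis) of the 42 TRIM genes in each of the 3 non-stimulated libraries, ordered by their mean, with colour for the call after ADP-heptose. TRIM28 stands alone at the top with 5709, and genes that were later higher after ADP-heptose are found from the 4th place (TRIM8) to the 37th (TRIM10).

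The first comparison asked which TRIM genes changed within 2.5 h of ADP-heptose. TRIM31 rose most, to 5.31 times its non-stimulated level, and TRIM15, TRIM16, TRIM47 and TRIM10 rose between 2.35 and 2.96 times. TRIM29 and TRIM21 rose less than 2-fold, and TRIM69, TRIM56, TRIM11 and TRIM8 rose by 1.19 to 1.33 times. TRIM45, TRIM35 and TRIM59 fell by 0.62, 0.58 and 0.36 on the log2 scale. In all, 11 of the 42 members (26.2%) were higher and 3 (7.14%) lower at a Benjamini-Hochberg adjusted p under 0.05 in edgeR's quasi-likelihood test, while of all 17412 genes tested 7.48% were higher and 4.42% lower. With a change of at least 2-fold as well, 5 members were higher, against 2.89% of all genes. No member was lower at that size (0 also by DESeq2, 9 members lower at an unadjusted p under 0.05 whatever their fold), against 0.471% of all genes. For 13 members the 3 ADP-heptose values were all above the 3 non-stimulated values and for 9 they were all below, which held for 15.4% and 14.7% of all genes tested. The members' median log2 fold change was 0.02 (quartiles -0.24 and 0.33) and that of all genes 0.01, with 21 members above 0 and 21 below.

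The scaling changed the split of higher and lower members. When libraries were scaled by their totals instead of TMM factors, the median of all genes shifted to -0.13. Then 7 members were higher and 11 lower, so that 38.9% of the called members were higher. With TMM this was 78.6% of the called members and 62.8% of all genes called. The split over all genes with library totals is not given here, so the shift cannot be called particular to the members. Of the 14 calls, 9 (TRIM31, TRIM15, TRIM16, TRIM47, TRIM10, TRIM29, TRIM21, TRIM35 and TRIM59) held in every one of the 16 other fits. Without ADP-heptose replicate 3, 15 members were higher and 6 lower, with no share of all genes in that fit to set beside these counts. The 7 calls added then were the rises of TRIM25 (0.45, adjusted p 1.7e-08), TRIM38 (0.20, adjusted p 0.037), TRIM26 (0.17, adjusted p 0.0267) and TRIM44 (0.17, adjusted p 0.0122) and the falls of TRIM68 (-0.29, adjusted p 0.0356), TRIM65 (-0.20, adjusted p 0.0141) and TRIM24 (-0.20, adjusted p 0.0456). Without non-stimulated replicate 3, 7 were higher, and without ADP-heptose replicate 1, 6 were lower.

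TRIM31 (ENSG00000204616, chromosome 6, 30102897 to 30113106, minus strand, GRCh38 in GENCODE 29) encodes a RING ligase known for ubiquitinating the antiviral adaptor MAVS and the inflammasome sensor NLRP3. It had 1161, 1114 and 1124 normalized counts in the non-stimulated libraries, 1874, 1904 and 1797 after flagellin and 5855, 5785 and 6403 after ADP-heptose. The 3 groups did not overlap, with flagellin between the other two. The log2 fold change after ADP-heptose was 2.41 (SE 0.07, edgeR adjusted p 2.7e-10), and it ranged from 2.36 to 2.43 when each library was left out in turn. An antisense transcript, TRIM31-AS1, overlaps the gene, with 1.48% of its mean count. Whether the counting used strand is not given in the sources used here, so reads of the 2 genes cannot be told apart.

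TRIM15 (ENSG00000204610, chromosome 6, 30163206 to 30172696, plus strand), a ligase that also localizes to focal adhesions, had 573.5, 629.4 and 663.8 normalized counts without stimulation, 758.0, 833.0 and 701.8 after flagellin and 1759, 1680 and 2095 after ADP-heptose. TRIM10 (ENSG00000204613, chromosome 6, 30151945 to 30160934, minus strand), known from red blood cell differentiation, had 155.7, 131.3 and 140.5, then 166.5, 160.2 and 196.5, then 329.9, 377.8 and 298.0. In both genes every ADP-heptose library lay above every library of the other 2 groups. Their log2 fold changes after ADP-heptose were 1.57 (SE 0.11, edgeR adjusted p 7.3e-07) for TRIM15 and 1.23 (SE 0.14, adjusted p 6.6e-05) for TRIM10.

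TRIM16 (ENSG00000221926, chromosome 17, 15627960 to 15684311, minus strand), a member without a RING domain that takes part in the autophagy of damaged lysosomes, had 684.9, 720.3 and 713.6 normalized counts without stimulation, 855.2, 952.0 and 828.1 after flagellin and 1787, 1826 and 2237 after ADP-heptose. TRIM47 (ENSG00000132481, chromosome 17, 75874161 to 75878575, minus strand), a RING ligase with a PRY-SPRY domain, had 1573, 1640 and 1591, then 1873, 1724 and 1732, then 3995, 3832 and 5087. Replicate 3 was the highest ADP-heptose library for both, and the groups were separate with or without it. The log2 fold changes were 1.46 (SE 0.10, edgeR adjusted p 7.8e-07) for TRIM16 and 1.43 (SE 0.10, adjusted p 1.2e-06) for TRIM47, and without replicate 3 they were 1.36 and 1.29. TRIM16L, the paralogue of TRIM16 with which reads could be shared, had 0 counts in every library. How reads that match both genes were counted is not given, so this does not show that none were shared or dropped.

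TRIM29, a RING-less protein of squamous epithelia and tumours that has been linked to restraint of antiviral signalling, had 2096, 1900 and 2091 normalized counts without stimulation, 2561, 2497 and 2313 after flagellin and 3594, 3612 and 4424 after ADP-heptose. TRIM21, the cytosolic Fc receptor that marks antibody-bound pathogens for degradation, had 512.6, 601.4 and 640.0, then 639.1, 632.7 and 648.2, then 989.8, 1041 and 1157. For both, the ADP-heptose libraries lay above all others. TRIM29 rose by 0.93 on the log2 scale (SE 0.09, edgeR adjusted p 2.2e-05) and TRIM21 by 0.86 (SE 0.10, adjusted p 7.9e-05).

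**Figure D2:**
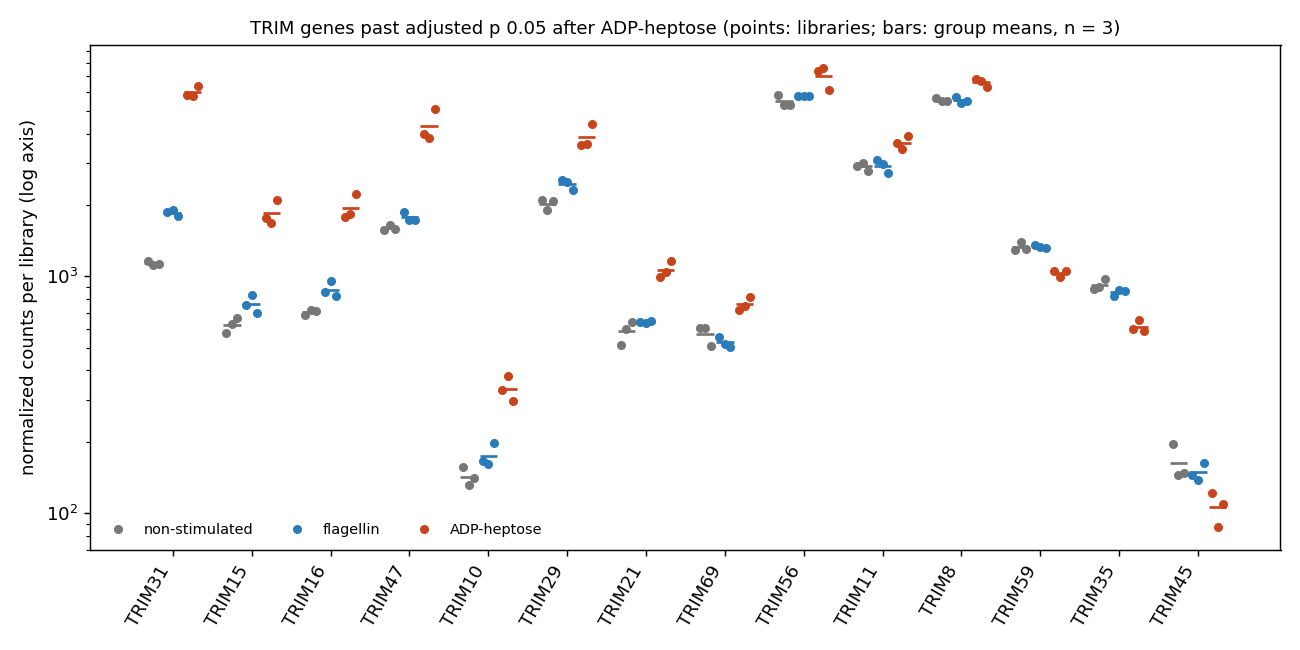
Normalized counts (log axis) of the 14 TRIM genes called after ADP-heptose (adjusted p under 0.05), in each of the 9 libraries, with bars at the group means (n = 3). The ADP-heptose points of TRIM31 (5785 to 6403) lie above the flagellin points (1797 to 1904), which lie above the non-stimulated ones (1114 to 1161), and for TRIM59, TRIM35 and TRIM45 the ADP-heptose points lie lowest.

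The remaining rises were small. TRIM69, a ligase of the centrosome and an interferon-induced antiviral protein, had 602.4, 605.9 and 509.2 normalized counts without stimulation, 553.2, 519.5 and 504.0 after flagellin and 717.4, 750.0 and 816.7 after ADP-heptose. TRIM56, an antiviral ligase that acts in the cGAS and STING pathway, had 5860, 5291 and 5321, then 5794, 5763 and 5764, then 7355, 7622 and 6121. The ADP-heptose group was above the others in both genes, in TRIM56 by a small gap to replicate 3. Their log2 fold changes were 0.41 (SE 0.10, edgeR adjusted p 0.0161) and 0.36 (SE 0.08, adjusted p 0.0159). TRIM11, a ligase of the nuclear protein quality control, rose by 0.33 (SE 0.08, adjusted p 0.0127), and TRIM8, which promotes NF-κB signalling through TAK1, by 0.25 (SE 0.06, adjusted p 0.0221). These 4 calls were lost in some of the 16 other fits. Over these fits the adjusted p ran from 7.9e-09 to 0.149 for TRIM56, from 0.00028 to 0.0802 for TRIM11, from 0.0035 to 0.0862 for TRIM69 and from 1.4e-05 to 0.304 for TRIM8. With library totals none of the 4 passed. TRIM8 passed in 5 fits, TRIM56 in 10 and TRIM69 and TRIM11 in 13. Leaving out non-stimulated replicate 3 ended all 4 calls. Leaving out ADP-heptose replicate 1 or 2 or non-stimulated replicate 2 ended those of TRIM56 and TRIM8, non-stimulated replicate 1 those of TRIM11 and TRIM8, and flagellin replicate 2 or 3 that of TRIM8. TRIM8 is overlapped on the other strand by a long non-coding gene with 13.4% of its mean count that itself rose by 0.46 (adjusted p 0.0115).

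Of the falling members, TRIM35, a ligase that binds pyruvate kinase and the interferon regulator IRF7, had 883.9, 905.4 and 970.9 normalized counts without stimulation, 822.1, 871.9 and 870.2 after flagellin and 597.4, 652.8 and 589.8 after ADP-heptose. TRIM59, an endoplasmic reticulum membrane protein associated with proliferation, had 1292, 1396 and 1298, then 1358, 1332 and 1316, then 1051, 996.4 and 1055. The ADP-heptose libraries were the lowest 3 for each gene. The log2 fold change was -0.58 for TRIM35 (SE 0.08, edgeR adjusted p 0.00041) and -0.36 for TRIM59 (SE 0.07, adjusted p 0.0051). TRIM59 is overlapped on the other strand by SMC4, which had 4.02 times its mean count and a log2 fold change of -0.38 (adjusted p 0.208). TRIM45, a member with a filamin-type domain, had 194.9, 144.7 and 148.1, then 144.8, 138.4 and 162.1, then 120.8, 87.1 and 109.4. Its fall of 0.62 on the log2 scale (SE 0.18, adjusted p 0.038) was called in 8 of the 16 other fits and was not past the threshold when any non-stimulated or flagellin library or ADP-heptose replicate 2 was left out.

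In the main edgeR fit, with the settings given below, the other 28 members did not pass in any of the 3 comparisons. Other fits of all 9 libraries called more members lower after ADP-heptose, 5 in the DESeq2 test and 11 with library totals, against 3. In the main fit the log2 fold changes of the 28 after ADP-heptose lay between -0.43 (TRIM68) and 0.35 (TRIM36), with standard errors of 0.06 to 0.40. TRIM68, a co-regulator of the androgen receptor, had an edgeR adjusted p of 0.0516 and was called as lower in 8 of the 16 other fits. TRIM24, a chromatin reader of the bromodomain class, had one of 0.0544 and passed as lower in 4 of them. Between the stimuli TRIM68 was called as lower in 5 of the 16 other fits. The most abundant member, TRIM28, had 22684, 23591 and 22816 normalized counts without stimulation and 23786, 23200 and 30768 after ADP-heptose, and its log2 fold change of 0.17 (SE 0.10, adjusted p 0.319) became 0.03 without replicate 3. TRIM25 had 4761, 4449 and 4934, then 6255, 6546 and 4711 after ADP-heptose, and there replicate 3 was the library within the non-stimulated range (log2 fold change 0.31, SE 0.11, adjusted p 0.0867). Without replicate 3 TRIM25 passed, at 0.45. Over all members, replicate 3 was the lowest ADP-heptose library for 24 and the highest for 15. Among the 28, TRIM66, TRIM39 and TRIM14 are overlapped on the other strand by RPL27A, HCG18 and NANS. These had 94.5, 3.03 and 1.51 times the mean count of the member. TRIM52 is overlapped in this way by a transcript with 45.3% of its mean count that fell by 0.44 (edgeR adjusted p 0.0468). The use of strand in the counting is not given, as for TRIM31.

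**Figure D3:**
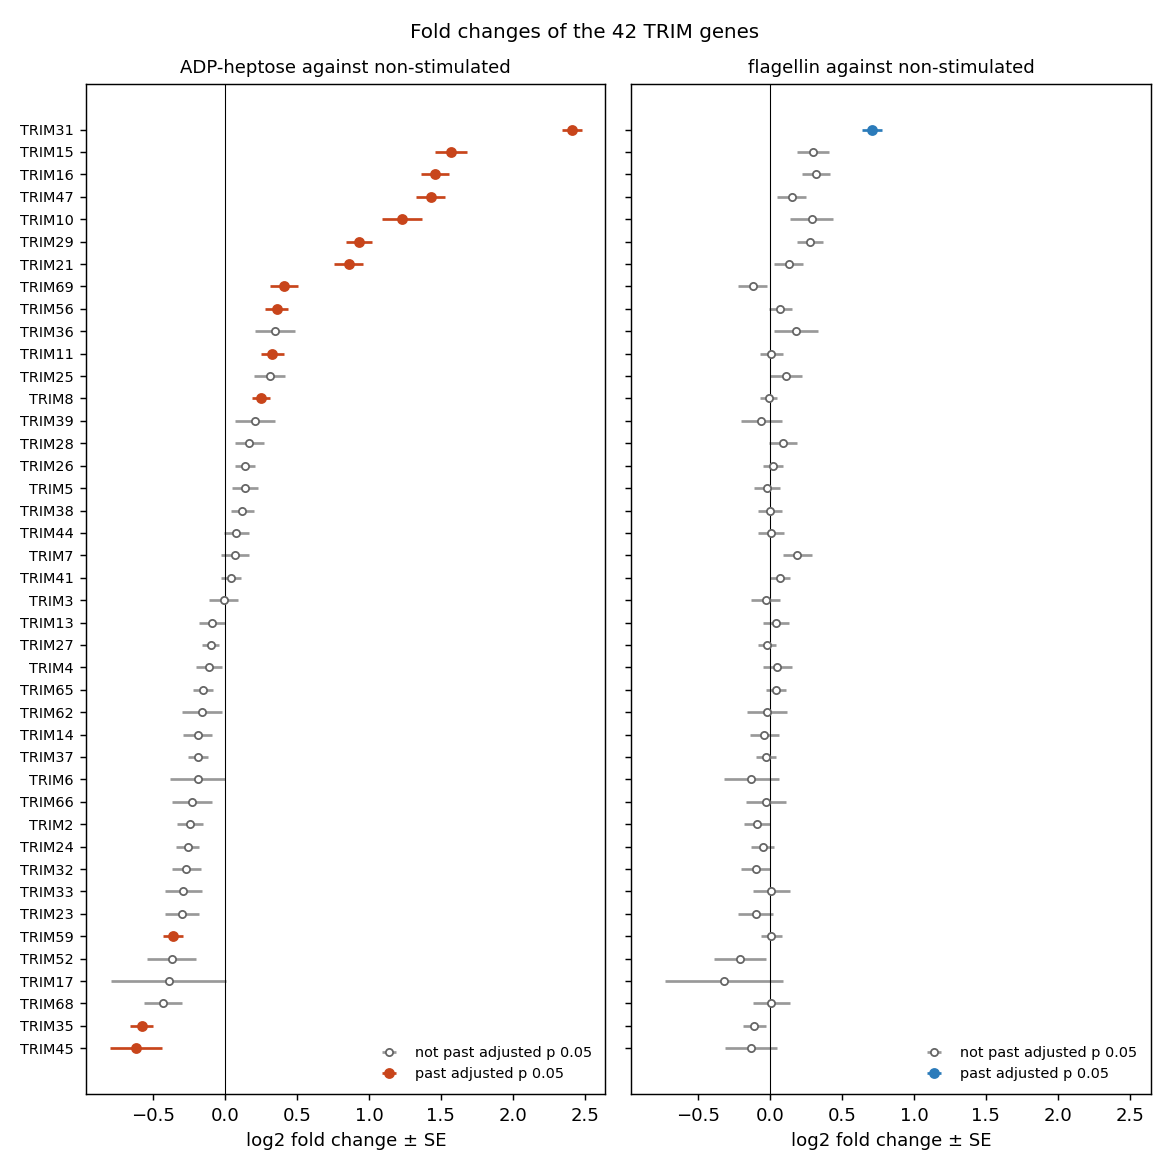
Log2 fold changes with SE of the 42 TRIM genes after ADP-heptose (left) and flagellin (right) against non-stimulated cells, in the order of the left panel, with filled points past an adjusted p of 0.05. The left panel spans -0.62 to 2.41 with 14 filled points, and the right panel spans -0.32 to 0.71 with TRIM31 as its filled point.

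Members were grouped by the domain at the C-terminal end, each in 1 class, with TRIM36 set apart for its COS box. The class named for the PRY-SPRY domain, the fold that many TRIM proteins use to bind their target, held 23 members. It need not hold every member with that domain. In this class 7 were higher (TRIM15, TRIM16, TRIM47, TRIM10, TRIM21, TRIM69 and TRIM11) and 1 lower (TRIM35) in the ADP-heptose libraries, which is 30.4% and 4.35% of the class beside 7.48% and 4.42% of all genes tested, and the class median was 0.12 on the log2 scale. Of the 4 members with no further domain beyond the tripartite motif, TRIM31, TRIM56 and TRIM8 were higher and TRIM52 had -0.37 (edgeR adjusted p 0.208). In the class with a PHD finger and bromodomain, made up of the transcription regulators TRIM24, TRIM28, TRIM33 and TRIM66, 0 of 4 passed in edgeR (1 at an unadjusted p under 0.05), with log2 fold changes from -0.29 to 0.17. TRIM24 passed as lower in 4 of the 16 other fits, DESeq2 and library totals among them, and TRIM33 in 1. In the class with NHL repeats, TRIM2, TRIM3 and TRIM32, 0 of 3 passed in edgeR or DESeq2 (2 at an unadjusted p under 0.05), with values from -0.27 to -0.01. With library totals TRIM2 (-0.37, adjusted p 0.0302) and TRIM32 (-0.40, adjusted p 0.0319) passed. The remaining classes held 1 or 2 members each. By the RING domain, 9 of 37 members with it (24.3%) and 2 of 5 without it (40.0%, TRIM16 and TRIM29) were higher, beside 7.48% of all genes tested. In classes this small, 0 of 4 and 0 of 3 are near the shares of all genes. No test of the difference between classes was run.

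Several TRIM genes lie together in the major histocompatibility complex on chromosome 6. Of the 7 members there or just outside it, TRIM31, TRIM15 and TRIM10 (42.9%) rose, beside 7.48% of all genes tested. The log2 fold changes of the others were 0.21 for TRIM39 (edgeR adjusted p 0.382), 0.14 for TRIM26 (adjusted p 0.212), 0.12 for TRIM38 (adjusted p 0.357) and -0.10 for TRIM27 (adjusted p 0.348). TRIM40, which lies between TRIM31 and TRIM10, was below the count minimum, with 0, 0 and 2 counts without stimulation and 2, 12 and 10 after ADP-heptose. Within 100 kb on either side of TRIM31, a stretch chosen after the values were seen, 10 genes were tested. TRIM31, on which the stretch was centred, is among the tested genes by that choice. Counting it, 5 were higher after ADP-heptose, where 7.48% of all genes tested were higher. Besides the 3 TRIM genes these were TRIM31-AS1 (log2 fold change 1.65, SE 0.25, adjusted p 0.00068) and the RNA polymerase subunit gene POLR1H (0.46, SE 0.14, adjusted p 0.049). As given above, reads of TRIM31-AS1 cannot be told apart from those of TRIM31. POLR1HASP, antisense to POLR1H, was lower (-0.72, SE 0.19, adjusted p 0.0287). Besides TRIM26, the genes of the stretch that did not pass were PPP1R11 (0.17, adjusted p 0.162), RNF39 (-0.14, adjusted p 0.678) and the pseudogene PAIP1P1 (0.30, adjusted p 0.677). In the cluster on the short arm of chromosome 11, TRIM21 was higher, and TRIM5 (0.14, adjusted p 0.347), TRIM6 (-0.19, adjusted p 0.56) and TRIM68 (-0.43, adjusted p 0.0516) did not pass.

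**Figure D4:**
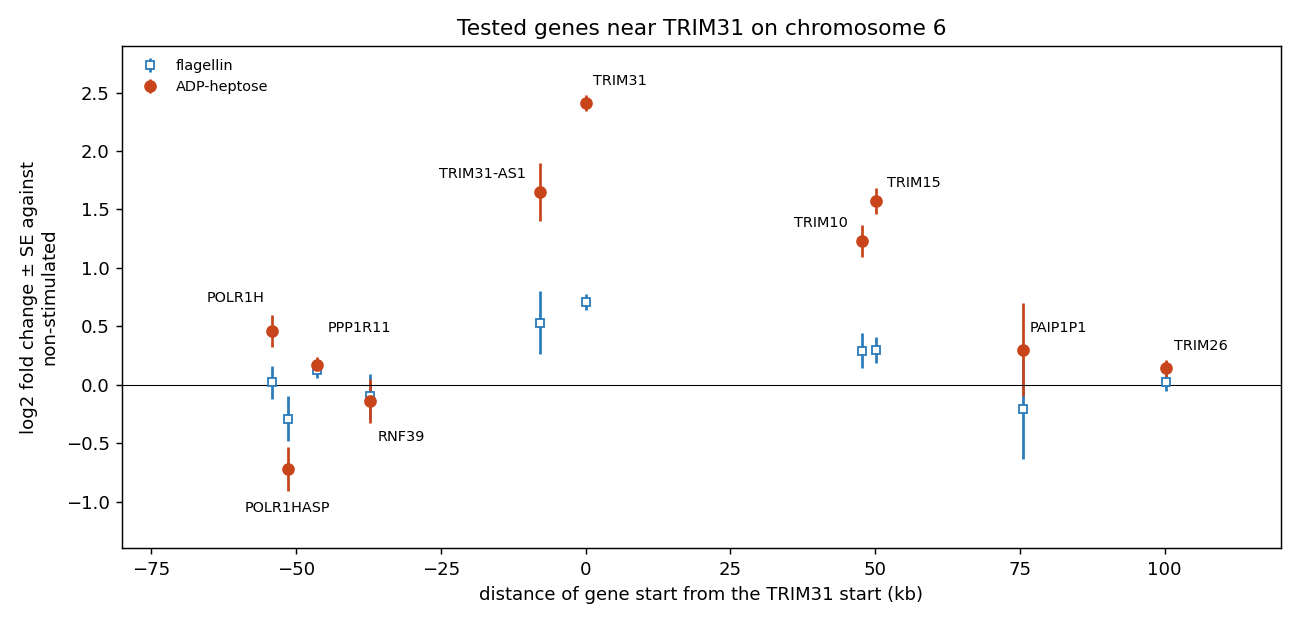
Log2 fold change with SE against non-stimulated cells for the 10 tested genes within 100 kb of TRIM31, by the distance of each gene start from that of TRIM31 in kb, for ADP-heptose (circles) and flagellin (squares). The ADP-heptose points of TRIM31 (2.41), TRIM31-AS1 (1.65), TRIM15 (1.57) and TRIM10 (1.23) are the 4 highest, TRIM26 at 100.3 kb has 0.14, and POLR1HASP (-0.72) is the lowest.

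A list of 14 TRIM genes known to be induced by interferon was read separately. Of its 11 members with enough counts, TRIM31, TRIM21, TRIM69 and TRIM56 (36.4%) were higher and TRIM35 (9.09%) lower after ADP-heptose, beside 7.48% and 4.42% of all genes tested. TRIM25 (0.31), TRIM5 (0.14), TRIM26 (0.14), TRIM38 (0.12), TRIM6 (-0.19) and TRIM14 (-0.19) did not pass, and their adjusted p ran from 0.0867 to 0.56. TRIM22, among the strongest interferon-induced TRIM genes in many cells, had 0 to 2 counts per library, as had TRIM34, and TRIM58 had 0 in all, which allows up to 3 counts a library. The interferon genes IFNB1, IFNL1, IFNL2 and IFNL3 had at most 4 counts in any library. Of the interferon targets ISG15, IFIT1, IFIT2, IFIT3, MX1, OAS1 and IFI6, 0 of 7 were higher after ADP-heptose by edgeR or DESeq2 (0 also at an unadjusted p under 0.05). Beside 7.48% of all genes tested, 0 of 7 is near the share of all genes. ISG15 had 0.32 (edgeR adjusted p 0.351) and MX1 -1.39 (adjusted p 0.127). The 7 are a selection and do not hold IFIH1 (1.53), CGAS (0.73) and PML (0.46). These are given below with other lists and rose after ADP-heptose (edgeR, largest adjusted p 0.0024). The target RSAD2 had 0 to 2 counts. After flagellin IFIT2 was higher by 1.11 (adjusted p 0.025).

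The second comparison asked which TRIM genes responded to flagellin. TRIM31 was 1.64 times higher (0.71 on the log2 scale, SE 0.07, edgeR adjusted p 0.00024). It passed in all 16 other fits, with values from 0.69 to 0.73. This was 1 of 42 members (2.38%), against 0.368% of all genes tested. Of the members 0 were lower (0 also by DESeq2 and 0 at an unadjusted p under 0.05), against 0.0115% of all genes. The members with the largest rises after ADP-heptose had positive values here that did not pass, with TRIM16 at 0.32 (SE 0.10, adjusted p 0.771), TRIM15 at 0.30 (SE 0.11), TRIM10 at 0.29 (SE 0.15), TRIM29 at 0.28 (SE 0.09, adjusted p 0.856) and TRIM47 at 0.15 (SE 0.10). All 3 flagellin libraries lay above all 3 non-stimulated ones for 10 members, where 7.66% of all genes did so. The 10 were TRIM31, TRIM15, TRIM16, TRIM47, TRIM10, TRIM29, TRIM36, TRIM25, TRIM7 and TRIM41, and the other 9 of them had log2 fold changes of at most 0.32. Without ADP-heptose replicate 3, which is in neither group compared here but in the same fit, TRIM16 (0.31, adjusted p 0.0231) and TRIM29 (0.27, adjusted p 0.00371) passed too and the count was 3. The members' median log2 fold change was 0.01.

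The third comparison set the stimuli, given at the same dose by mass and for the same time, against each other. TRIM31 was 3.24 times higher after ADP-heptose than after flagellin (log2 fold change 1.69, SE 0.07, edgeR adjusted p 9.9e-09), and TRIM47 (1.28, SE 0.10, adjusted p 4.7e-06), TRIM15 (1.27, SE 0.11, adjusted p 6.5e-06) and TRIM16 (1.15, SE 0.10, adjusted p 8.9e-06) followed. TRIM10 (0.95), TRIM21 (0.73), TRIM29 (0.66), TRIM69 (0.53), TRIM11 (0.32) and TRIM8 (0.26) were also higher, with adjusted p from 0.00041 to 0.0238. TRIM35 (-0.48, adjusted p 0.0026) and TRIM59 (-0.37, adjusted p 0.0058) were lower. These 10 higher and 2 lower members stood beside 5.4% and 2.76% of all genes tested. All 12 were also called in the same direction against non-stimulated cells, a comparison that shares the ADP-heptose libraries. TRIM56 (0.28, adjusted p 0.0642) and TRIM45 (-0.49, adjusted p 0.129) did not pass between the stimuli. With library totals, 8 members were higher and 6 lower so that 57.1% of the called members were higher, where TMM gave 83.3%. The median of all genes was -0.11 in that fit. Shares of all genes called are given here for the main fit only. Without ADP-heptose replicate 3, 15 members were higher and 4 lower. The calls added then were TRIM56 (0.39, adjusted p 2.36e-07), TRIM25 (0.35, adjusted p 2.52e-06), TRIM5 (0.23, adjusted p 0.0377), TRIM38 (0.21, adjusted p 0.0326) and TRIM44 (0.17, adjusted p 0.0196) as higher and TRIM68 (-0.29, adjusted p 0.0383) and TRIM65 (-0.23, adjusted p 0.0046) as lower. TRIM11 and TRIM8 lost this call with library totals (adjusted p 0.0945 and 0.245, in ranges over the other fits of 0.00043 to 0.107 and 8e-06 to 0.245). Leaving out flagellin replicate 2 or 3 ended both, and leaving out flagellin replicate 1, ADP-heptose replicate 1 or 2 or non-stimulated replicate 3 ended that of TRIM8.

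Related genes outside the numbered symbols (10 in the list) were read as well. PML, the organizer of nuclear bodies and a TRIM protein by its domains, rose after ADP-heptose by 0.46 (edgeR adjusted p 0.0024) and was 0.31 higher than after flagellin (adjusted p 0.034). TRIML2, a TRIM-like gene, had 0 counts in every non-stimulated library, 0 to 2 after flagellin and 58, 64 and 66 with ADP-heptose. Against the 3 counts a library that a count of 0 allows, it was at least 15.7-fold higher (edgeR adjusted p 6.7e-05). The microtubule-associated MID1 (-0.38, adjusted p 0.268) and MID2 (0.66, adjusted p 0.225) and the muscle gene CMYA5 (-0.97, adjusted p 0.106) did not pass. MEFV, which encodes pyrin, had 0 to 8 counts, TRIML1 0 to 3, and TRIM6-TRIM34, TRIM39-RPP21 and TRIM16L had 0 in all libraries.

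Of 11 E2 family genes listed as partners of RING ligases, UBE2D3 was higher after ADP-heptose, by 0.25 (edgeR adjusted p 0.0264). The other 10 did not pass, so that 9.09% of the list were higher beside 7.48% of all genes tested. Of the 10, UBE2D1 (0.20), UBE2D2 (0.03), UBE2D4 (0.08), UBE2E1 (0.12), UBE2E2 (0.11), UBE2N (0.10), UBE2V2 (0.11) and UBE2W (0.10) had positive values, and UBE2E3 (-0.04) and UBE2V1 (-0.25) negative ones. After flagellin 0 of 11 passed by edgeR or DESeq2 (0 at an unadjusted p under 0.05), with values from -0.03 to 0.05. This is near the 0.368% of all genes tested that were higher in edgeR.

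Among the sensors, adaptors and kinases on which TRIM ligases act, 3 of 12 (25%) rose after ADP-heptose, beside 7.48% of all genes tested. They were TICAM1, the adaptor of TLR3 (1.91, edgeR adjusted p 8.2e-09), IFIH1, which encodes the RNA sensor MDA5 (1.53, adjusted p 1.8e-07), and the DNA sensor CGAS (0.73, adjusted p 0.0016). MAVS, the adaptor that TRIM31 acts on, had -0.19 (adjusted p 0.117), and TBK1 (0.15), TAB1 (-0.12), TAB2 (-0.07), TAB3 (-0.12), MAP3K7 (0.00), which encodes TAK1, and IKBKG (0.26) did not pass. RIGI, which encodes the RNA sensor RIG-I, had 7 to 8 raw counts without stimulation, 14 to 22 after flagellin and 13 to 29 in the deeper ADP-heptose libraries. With normalization its log2 fold change was 0.86 after ADP-heptose (edgeR adjusted p 0.247) and 1.34 after flagellin (adjusted p 0.835). STING1 had 24 to 52 raw counts in all and a log2 fold change of 0.01 after ADP-heptose (adjusted p 0.988). After flagellin 0 of the 12 passed by edgeR or DESeq2, which is near the 0.368% of all genes tested that were higher in edgeR. RIGI, TICAM1 (0.32) and IFIH1 (0.31) were the 3 at an unadjusted p under 0.05.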

How the data were processed

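The series holds 9 RNA libraries from HT-29 cells (3 per group). The authors enriched poly(A) RNA, sequenced paired 150-base reads, aligned them with HISAT2 and ran featureCounts to count reads by gene, and the deposited table holds these raw counts. Versions, genome build, annotation and strandedness are not given in the sources used here. Identifiers listed more than once (232, with identical counts) were kept once. Positions and exon lengths came from GENCODE 29 (GRCh38), which held all 42 members, and promoters from RefSeq.

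The model used edgeR 4.0.16 (R 4.3.3) with TMM, filterByExpr and the robust quasi-likelihood test on all 9 libraries and 17412 genes, and adjusted p are Benjamini-Hochberg over all genes. The SE of a log2 fold change was derived from this test, as its absolute value divided by the square root of the F statistic. For normalized counts, each count was divided by its library's effective size and rescaled to the geometric mean of these sizes. DESeq2 1.42.0, other scalings and filters, 6-library fits, a replicate block and each library left out were the alternatives. The replicate numbers gave correlations of -0.447 to 0.293 between same-numbered libraries and were not taken as pairs. The study mentions independent experiments but no label ties a library to one, so p-values measure the spread between these libraries. The smallest two-sided p of an exact permutation test between groups of 3 is 0.1, so single genes rest on the fit across all genes.

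The members, the gene lists and the domain classes were chosen with earlier results of these data known. Named genes are members past an adjusted p of 0.05 in any comparison (values in every library for the 12 largest changes after ADP-heptose, and the 4 largest each after flagellin and between the stimuli), the 8 highest levels per kb, those next to the count minimum and every gene of the lists. TRIM28 and TRIM25 were given by library, and the members with separate flagellin libraries and the genes near TRIM31 were named, after their values were seen. Protein sequences were not used here.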

Additional observations from a re-analysis of the deposited data

How the results depend on the processing

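After ADP-heptose, 11 members were higher and 3 lower, and the members' median was 0.02 (log2). Shares of all genes called are given above for the main fit alone. The counts of members in the other fits therefore have no background beside them. Library totals gave 7 higher and 11 lower and a median of -0.11. The DESeq2 test gave 5 lower members, no filter on low counts 6, and a 2-fold minimum 5 higher and 0 lower. Leaving out each library in turn gave 7 to 15 higher and 2 to 6 lower members and medians of -0.03 to 0.03. After flagellin the 1 higher member became 2 in the fit of 6 libraries (TRIM29 added), 0 with the 2-fold minimum and 1 to 3 with each library left out, and medians ran from -0.01 to 0.02. Between the stimuli, the 2 lower members became 6 with library totals, 4 without a filter and 0 with the 2-fold minimum, under which 4 were higher. Each library left out gave 8 to 15 higher and 2 to 4 lower members there, and medians of -0.06 to 0.04, and library totals gave a median of -0.15. The cause of these shifts was not tested, beyond that a fold minimum can only remove calls.

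The sign changed for 5 members that were not called after ADP-heptose. With library totals these were TRIM38 (-0.01), TRIM44 (-0.05), TRIM7 (-0.07) and TRIM41 (-0.09). With each library left out, TRIM7 ran from -0.01 (without ADP-heptose replicate 3) to 0.14, TRIM41 from -0.02 (without ADP-heptose replicate 2) to 0.11, and TRIM3 from -0.10 to 0.05, above 0 without non-stimulated replicate 1 or ADP-heptose replicate 2 or 3. No called member changed sign in any fit. Among the member values compared after ADP-heptose, 605 kept their sign and their side of the threshold, 9 changed sign without being called, 31 lost a call and 27 gained one. With the replicate number as a block, 10 members were higher and 4 lower after ADP-heptose, 1 and 0 after flagellin and 8 and 3 between the stimuli, with TRIM8 not called in the first, TRIM8 and TRIM11 not called in the third and TRIM68 called as lower in both. Depth limits TRIM17 and TRIM6 most, with under 150 counts per library.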
